A study of Mus musculus with 30 samples.

Results

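The colony-stimulating factors and their receptors were followed through the sorted brain cells of an Alzheimer's disease mouse model. They are the ligand genes Csf1 and Il34 and the receptor genes Csf1r, Csf2ra, Csf2rb and Csf3r, 6 genes listed by symbol among the 36528 gene identifiers of the count tables, and all 6 were found. Cells were sorted from the brains of 11.5-month-old mice as Cd11b+ myeloid cells, Gfap+ astrocytes or NeuN+ neurons. In each of these 3 populations, 5 libraries came from PS2APP mice, which carry transgenes for mutant human presenilin 2 and amyloid precursor protein, and 5 from non-transgenic (non-Tg) littermates, giving 30 libraries in 6 groups. The labels name neither the promoters that drive the transgenes nor the libraries that share an animal. Each p-value therefore rests on the spread among the libraries of a group, which may be partly technical. Replicate numbers were given here in sample order within each group. Equal numbers in different populations do not mark the same animal.

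Csf1 encodes macrophage colony-stimulating factor and Il34 an unrelated secreted protein, and both bind the receptor tyrosine kinase encoded by Csf1r, on which microglia depend for survival and renewal. In the brain Il34 is known mainly as a neuronal product and Csf1 mainly as a glial one. Csf2ra encodes the ligand-binding chain of the receptor for granulocyte-macrophage colony-stimulating factor, and Csf2rb the beta chain that signals for it and for the Il3 and Il5 receptors. Csf3r encodes the receptor for granulocyte colony-stimulating factor, classically a receptor of neutrophils and their precursors.

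Total counts per library ran from 2015535 to 6749681. In myeloid libraries they ran from 3578249 to 6143018 in non-Tg and from 2015535 to 2908222 in PS2APP mice. These ranges did not overlap, so depth cannot be told apart from genotype there. Levels are given in CPM, the read count scaled to library size. Taken on the total counts as they stand, 3 counts corresponded to 0.444 to 1.488 CPM. The levels below use rescaled totals, on which this floor shifts somewhat. The labels put the usual RNA yield at 200 to 300 ng for neurons, 10 to 20 ng for microglia and 2 to 5 ng for astrocytes. Astrocyte libraries also carry sample identifiers from a separate series, so population cannot be told apart from yield or from what that series stands for. The gene used for each sort was highest in its own population: non-Tg Itgam (Cd11b) averaged 1536.7 CPM in myeloid libraries against 5.76 in astrocyte and 6.91 in neuron libraries. Mitochondrial genes took 5.42 to 12.6% of counts in non-Tg and 9.37 to 16.6% in PS2APP myeloid libraries, and 2.39 to 4.69% against 5.55 to 8.54% in astrocyte libraries. PS2APP myeloid replicate 4, astrocyte replicate 3 and neuron replicate 5 lay farthest from the other libraries of their population on the first principal component. A gene was called when its Benjamini-Hochberg adjusted p over all genes tested, from edgeR's quasi-likelihood test, was under 0.05. Levels are CPM scaled over all 30 libraries, and fold changes come from the fit of each population.

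Csf1 was the member that changed most clearly in myeloid cells. It rose 3.6-fold in PS2APP myeloid libraries, from a level below that of astrocytes to one close to it, while its changes in astrocytes and neurons did not pass the test. In non-Tg mice astrocytes held the most Csf1 message, myeloid cells less and neurons least. The 250 bases before the Csf1 start are shown because this is the ligand whose message rose. They lie at chr3:107760470-107760719 on the minus strand (GRCm38.p6, RefSeq start), outside annotated exons, and the gene itself runs from 107741048 to 107760469. Capitals mark matches to the NF-kappa-B type motif GGGANNNNCC on either strand.
Csf1: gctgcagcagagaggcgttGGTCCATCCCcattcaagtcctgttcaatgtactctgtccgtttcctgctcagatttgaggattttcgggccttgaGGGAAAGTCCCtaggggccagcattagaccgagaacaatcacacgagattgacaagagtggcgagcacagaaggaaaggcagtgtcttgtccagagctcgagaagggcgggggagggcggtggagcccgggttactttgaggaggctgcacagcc
There were 3 matches, starting 231, 155 and 154 bases before the start, the last 2 overlapping. Of 32851 gene-start windows of the same length, 17.6% held at least 1 match, so the motif is common and the matches are a description of the letters only.

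In the 5 non-Tg myeloid libraries Csf1 stood at 21.1, 40.5, 45.5, 32.8 and 29.2 CPM. The 5 PS2APP myeloid libraries stood at 94.7, 76.2, 164, 142 and 100.2 CPM, so that every one of them lay above every non-Tg library. The means were 33.8 ± 9.56 and 115 ± 36.3 CPM (SD, n = 5 each). The log2 fold change was 1.85 ± 0.24 (SE), with an adjusted p of 6.1e-05 from edgeR. Of 12274 genes tested in myeloid libraries, 412 (3.36%) were called, and Csf1 was the 1 called gene of the 5 members tested there. Leaving out each of the 10 libraries in turn gave 1.71 to 1.99 and kept the call each time.

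Astrocyte markers were measured beside this rise because astrocytes hold more Csf1. Myeloid Csf1 stood at 29.9% of the astrocyte level in non-Tg mice and 78.7% in PS2APP mice. In the same myeloid libraries 8 astrocyte markers summed to a mean of 739 CPM in non-Tg mice (493 to 994), or 5.21% of their astrocyte level. In PS2APP mice the mean was 699 CPM (581 to 890), or 6.64%. Within that list Gfap rose in myeloid libraries (log2 fold change 2.77 ± 0.25, adjusted p = 5e-07) and the water channel gene Aqp4 fell (-1.64 ± 0.41, adjusted p = 0.031), while the other 6 did not pass the test. Other lists moved too. The 7 oligodendrocyte markers summed to 708 to 1093.5 CPM in non-Tg and 1153.2 to 1780.2 CPM in PS2APP myeloid libraries, without overlap. Of the 5 tested, 2 rose, the myelin genes Mbp (0.84 ± 0.20, adjusted p = 0.023) and Mobp (0.90 ± 0.20, adjusted p = 0.019). Of 3 endothelial and mural genes tested 1 rose, Flt1 (1.78 ± 0.42, adjusted p = 0.023), and of 4 monocyte genes 1 fell, Ccr2 (-2.16 ± 0.41, adjusted p = 0.0067). None of 4 border macrophage, 2 dendritic cell, 5 oligodendrocyte precursor and 8 neuron genes tested passed, and no lymphocyte gene could be tested. The mitochondrial share also ran higher in PS2APP libraries. The part of these shifts in the Csf1 difference was not tested. In bulk samples such as these, more cells of a type and more RNA per cell cannot be told apart.

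Astrocyte Csf1 ranged from 91.7 to 146 CPM in non-Tg and from 113 to 181 CPM in PS2APP libraries, and the groups overlapped. The log2 fold change was 0.39 ± 0.18 (adjusted p = 0.28). Of 14043 genes tested in astrocyte libraries, 26 (0.185%) were called. Neuron Csf1 ranged from 7.88 to 12.2 CPM in non-Tg and from 9.54 to 13.4 CPM in PS2APP libraries (0.17 ± 0.16, adjusted p = 0.51). Only 1 of 16064 genes tested in neuron libraries (0.00623%) was called, with 3671 at an unadjusted p under 0.05, and it was not a member. DESeq2 called 164 genes in neurons.

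The difference between the population effects was itself tested in the fit of all 30 libraries. The Csf1 effect was larger in myeloid cells than in astrocytes by 1.40 ± 0.29 log2 units (adjusted p = 0.013), in a contrast where 137 of 18101 genes (0.757%) were called. It was larger than in neurons by 1.58 ± 0.30 (adjusted p = 0.013), in a contrast where 19 genes (0.105%) were called. The median over all genes of these 2 contrasts was -0.112 and -0.148, of opposite sign to the Csf1 differences. The third contrast, astrocytes against neurons, gave 0.19 ± 0.30 for Csf1 (adjusted p = 1.0) with 6 genes (0.0331%) called.

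**Figure D1:**
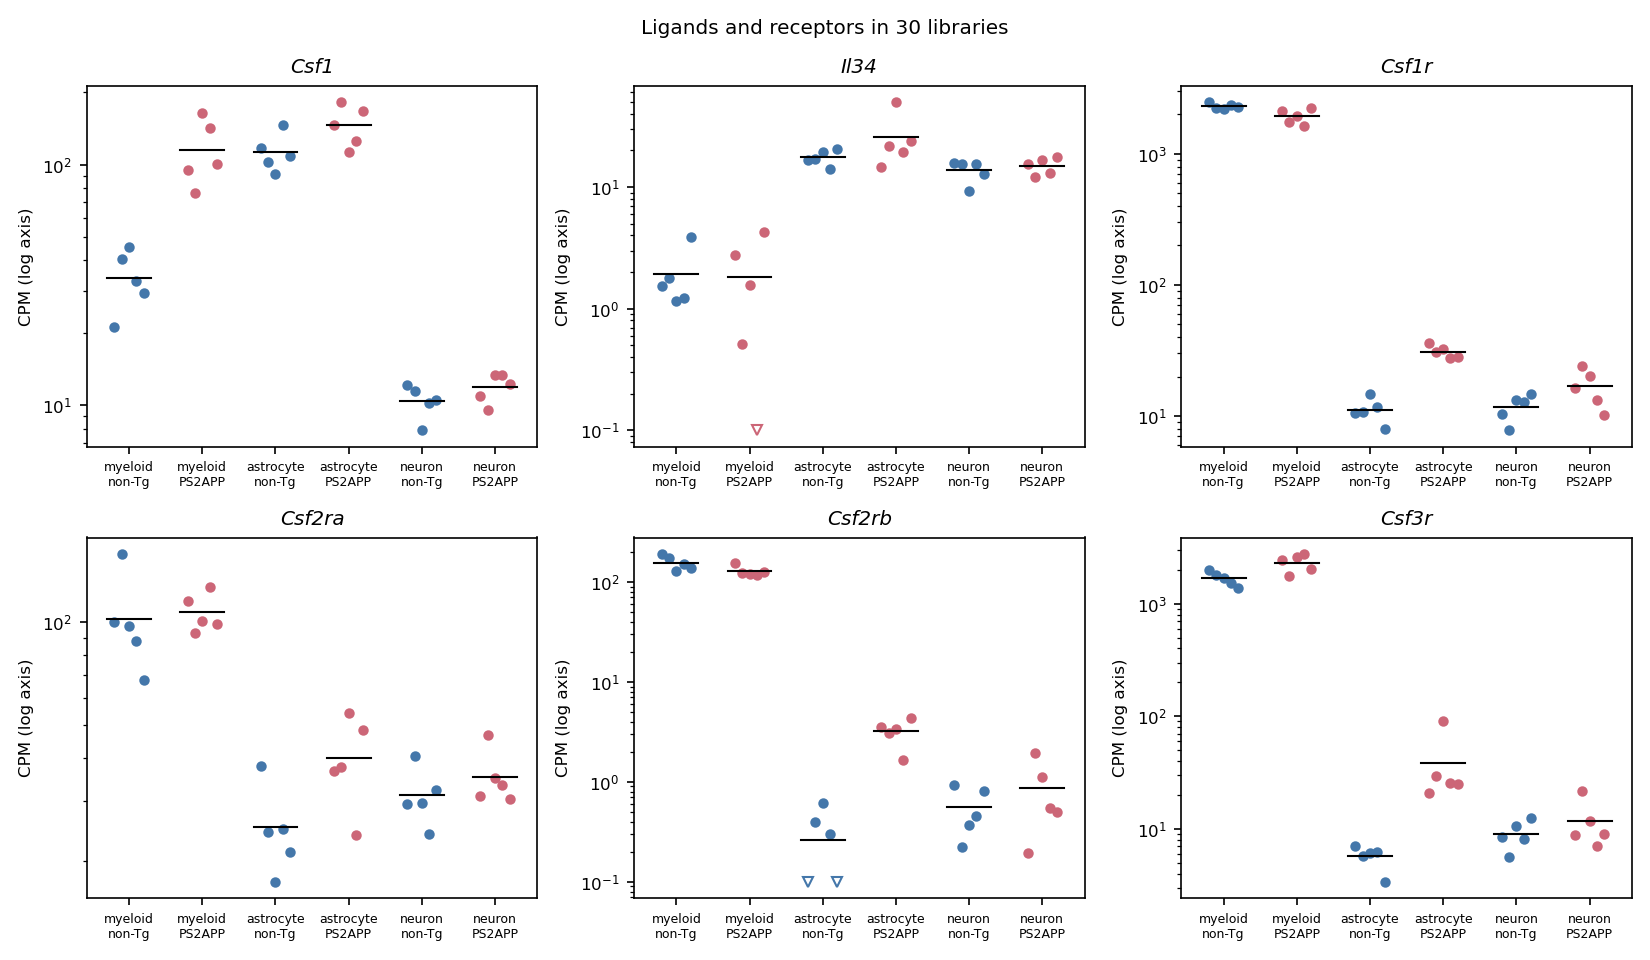
CPM on a log axis for each of the 6 genes, with 5 points per group for the libraries, a bar at the group mean, non-Tg in blue and PS2APP in red; open triangles mark libraries at 0, placed at the foot of the axis. Csf1 in the 5 PS2APP myeloid libraries (76.2 to 164 CPM) lies above all 5 non-Tg ones (21.1 to 45.5 CPM), and Csf1r, Csf2rb and Csf3r are highest in the myeloid groups.

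Il34 had the opposite layout to a myeloid gene. It was present at similar levels in astrocyte and neuron libraries and close to the counting floor in myeloid ones. Non-Tg astrocyte libraries held 16.7, 17.0, 19.5, 14.1 and 20.5 CPM (17.5 ± 2.55, SD, n = 5), and non-Tg neuron libraries 15.9, 15.3, 9.19, 15.4 and 12.7 CPM (13.7 ± 2.79, SD, n = 5). These 2 populations overlapped and differed by 0.35 ± 0.35 log2 units (adjusted p = 0.42). Non-Tg myeloid libraries held 1.16 to 3.92 CPM, on counts of 4 to 18. The log2 difference from astrocytes was -3.17 ± 0.41 (adjusted p = 2.8e-08) and from neurons -2.81 ± 0.41 (adjusted p = 1.9e-07).

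The astrocyte level of Il34 was set beside neuron markers, since Il34 is known from neurons. In non-Tg mice astrocyte libraries held Il34 at 128% of its neuron level and 9 summed neuron markers at 14.8% of theirs (126 to 230 CPM against 1140.8 to 1317.3 CPM). In PS2APP mice the values were 172% for Il34 and 28.4% for the markers. PS2APP astrocyte libraries held 14.6, 21.5, 49.5, 19.3 and 23.7 CPM of Il34. The high one, replicate 3, also had 764 CPM of neuron markers against 184 to 287 CPM in the other 4.

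Il34 did not pass the PS2APP test where it could be tested. In astrocytes the log2 fold change was 0.57 ± 0.31 (adjusted p = 0.35), and 0.184 without replicate 3. In neurons PS2APP libraries held 12.1 to 17.5 CPM and the change was 0.11 ± 0.18 (adjusted p = 0.71). In myeloid libraries the gene did not pass the count filter, and PS2APP libraries held 0 to 11 counts. The gene lies at chr8:110741829-110805949 (GRCm38.p6) and overlaps the antisense genes Gm15894 and Gm15895. The labels and headers do not say whether counting used strand.

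The balance of the 2 ligands of Csf1r differed between populations on a per-length scale (RPKM, reads scaled to gene length and library size). In non-Tg astrocytes Csf1 averaged 7.96 RPKM against 2.45 for Il34, and in non-Tg neurons 0.769 against 2.00. Csf1 made up 76.0 ± 5.28% of the ligand RPKM in astrocytes (SD, n = 5) and 28.0 ± 1.96% in neurons, and the ranges, 70.3 to 84.0% and 25.1 to 30.2%, did not overlap. In myeloid cells the share was 89.3 ± 6.47% in non-Tg and 96.7 ± 3.23% in PS2APP libraries. That rise gave p = 0.0476 in a two-sided exact permutation test and 0.0857 after adjustment over 9 such tests. In PS2APP mice the share was 74.5 ± 12.01% in astrocytes (adjusted p = 0.881, exact permutation) and 28.8 ± 3.27% in neurons (adjusted p = 0.812, exact permutation).

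**Figure D2:**
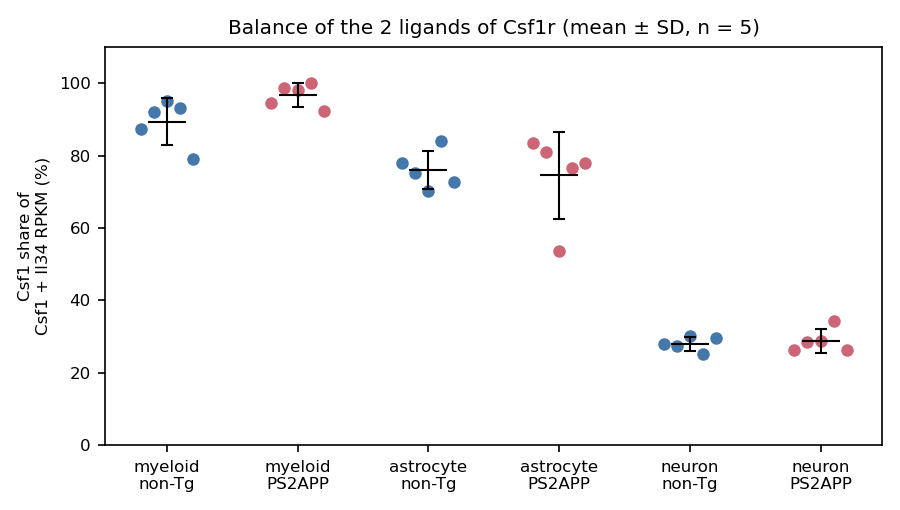
Csf1 as a percentage of the summed RPKM of Csf1 and Il34 in each library, with bars for the mean and SD of 5 libraries per group. Neuron libraries sit near 28%, astrocyte libraries near 75% with 1 PS2APP library at 53.5%, and myeloid libraries at 78.9% or above.

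All 4 receptor genes were highest in myeloid cells, but the step down to the other populations differed among them. Against non-Tg astrocytes the log2 difference was 7.70 ± 0.24 for Csf1r, 9.14 ± 0.41 for Csf2rb and 8.18 ± 0.39 for Csf3r, and only 2.02 ± 0.23 for Csf2ra. The same comparison with neurons gave 7.62 ± 0.23, 8.07 ± 0.37, 7.53 ± 0.37 and 1.71 ± 0.23. All 8 differences were called, with adjusted p from 1.6e-24 to 3.7e-08. So were all 4 of the ligand differences of myeloid cells, including -1.74 ± 0.21 for Csf1 against astrocytes and 1.68 ± 0.22 against neurons. These calls are read against a background in which 57.4% of 18101 genes were called between myeloid and astrocyte libraries and 67.9% between myeloid and neuron libraries. Between astrocytes and neurons 51.7% of genes were called, and 1 of the 6 members, Csf1 (3.43 ± 0.23, adjusted p = 2.7e-15), was among them.

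Csf1r was strongly expressed in myeloid cells of both genotypes and did not pass the PS2APP test there. The 5 non-Tg myeloid libraries held 2471.2, 2228.2, 2219.6, 2345.8 and 2265.8 CPM, and the 5 PS2APP ones 2126.1, 1743.1, 1954.7, 1635.4 and 2242.6 CPM. Of the PS2APP libraries, 4 lay below all non-Tg libraries and 1 within their range, and the log2 fold change was -0.17 ± 0.13 (adjusted p = 0.49). Of 9 microglia markers 2 fell in the same libraries, Cx3cr1 (-0.58 ± 0.15, adjusted p = 0.032) and Tmem119 (-0.71 ± 0.19, adjusted p = 0.041). The whole list summed to 5735.9 to 7411.9 CPM per non-Tg library and 4069.5 to 5955.9 CPM per PS2APP library. Per marker count, Csf1r in myeloid cells changed by 0.164 log2 units (adjusted p = 0.19, exact permutation).

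In astrocyte libraries Csf1r rose 2.8-fold at a low level. Non-Tg libraries held 10.4, 10.8, 14.6, 11.8 and 7.97 CPM and PS2APP libraries 36.0, 30.8, 32.5, 27.9 and 28.0 CPM, with no overlap. The log2 fold change was 1.5 ± 0.25 (adjusted p = 0.015). Without non-Tg astrocyte replicate 2 or replicate 5 the adjusted p was 0.063 and 0.054, and the call was lost. The rise differed from the myeloid change by -1.73 ± 0.26 log2 units (myeloid minus astrocyte, adjusted p = 0.00035). Against neurons the difference was 0.97 ± 0.27 (adjusted p = 0.47).

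Microglia markers moved in the same astrocyte libraries. The 9 markers summed to 34.6 to 64.7 CPM in non-Tg and 50.1 to 101 CPM in PS2APP astrocyte libraries, 0.766% and 1.74% of their myeloid level, while Csf1r stood at 0.482% and 1.60% of its own. None of the 9 was at 0 in either group, 6 were tested, 5 of those had positive changes and 1, Fcrls (2.98 ± 0.56, adjusted p = 0.031), rose. In 4 of 5 PS2APP libraries the sum, 81.6 to 101 CPM, lay above every non-Tg library. Per marker count, Csf1r was 0.746 log2 units higher in PS2APP astrocyte libraries (adjusted p = 0.0357, exact permutation). That call held in 2 of 10 tests with 1 library left out, and the adjusted p was 0.0714 in the others. Without the 2 most abundant markers the difference was 0.225 (adjusted p = 0.622, exact permutation). Oligodendrocyte markers summed to 775 to 1210.5 CPM in non-Tg and 984 to 2055.3 CPM in PS2APP astrocyte libraries. No gene of the astrocyte, oligodendrocyte, precursor, neuron, endothelial, monocyte or dendritic cell lists passed the test there. The part of these markers in the Csf1r rise was not tested beyond these values.

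In neuron libraries Csf1r ranged from 7.76 to 14.8 CPM in non-Tg and from 10.1 to 24.2 CPM in PS2APP mice, with overlap, and did not pass the test (0.50 ± 0.24, adjusted p = 0.23). Nor did any gene of the marker lists in neurons. Per marker count it was 0.343 higher (adjusted p = 0.0357, exact permutation), and 0.179 without the same 2 markers (adjusted p = 0.114, exact permutation). Of the 50-base stretches in Csf1r transcripts, 16.4% also occur in Hmgxb3, which is transcribed from the opposite strand. Hmgxb3 averaged 30.4 and 30.1 CPM in non-Tg and PS2APP astrocytes, and 30.1 and 36.9 CPM in non-Tg and PS2APP neurons. The part of such shared reads in the Csf1r values was not tested.

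Csf3r, the gene of the granulocyte colony-stimulating factor receptor, was strongly expressed in myeloid cells and rose in astrocyte libraries. The 250 bases before a RefSeq start of Csf3r and before one of Csf2ra hold the ETS core GAGGAA, bound by the myeloid factor Spi1. The 30 bases around it are shown for both receptor genes. Capitals mark the core. The stretches lie at chr4:126024561-126024590 on the plus strand and chr19:61228419-61228448 on the minus strand (GRCm38.p6, RefSeq starts). Csf3r itself runs from 126023441 to 126044975 and Csf2ra from 61217191 to 61228461. Both stretches thus lie inside the gene, before a start that is not its outermost one.
Csf3r: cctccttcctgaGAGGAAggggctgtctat
Csf2ra: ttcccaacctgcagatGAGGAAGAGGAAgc
The core starts 86 bases before this Csf3r start, and Csf2ra has 2 copies side by side, 14 and 8 bases before the start used. All 30 bases at Csf3r and 11 of 30 at Csf2ra fall in exons of other annotated transcripts of the same gene. GAGGAA or its reverse complement TTCCTC was found in 23.3% of the 32851 windows, and the Csf1 window above holds neither. The Csf3r window also holds 1 match to the NF-kappa-B type motif, starting 129 bases before the start, and the Csf2ra window holds none.

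Non-Tg myeloid libraries held 1981.9, 1805.9, 1687.2, 1540.5 and 1375.5 CPM of Csf3r, and PS2APP ones 2452.8, 1745.1, 2603.4, 2768.3 and 2026.7 CPM. Of the PS2APP libraries, 4 lay above all non-Tg libraries. The log2 fold change was 0.55 ± 0.16, and its adjusted p of 0.053 just missed the threshold. The call changed with the method: the adjusted p was 0.049 with RLE size factors, 0.034 without a count filter, 0.035 with a robust fit and 0.013 with DESeq2, and 0.32 in the fit of all 30 libraries. Per microglia marker count, Csf3r was 0.88 log2 units higher in PS2APP myeloid libraries (adjusted p = 0.0357, exact permutation). That call held in 2 of 10 tests with 1 library left out, and the adjusted p was 0.0714 in the others. The summed markers averaged 4988.3 CPM in the PS2APP myeloid libraries, below their non-Tg mean of 6661.0 CPM. The ratio therefore holds the fall of the markers as well as the change of Csf3r, and these parts were not tested separately.

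Neutrophil markers were measured in the same myeloid libraries. Their sum over 9 genes ran from 108 to 1370.1 CPM among non-Tg libraries and from 27.1 to 905 CPM among PS2APP ones, with none at 0 in either group. All 9 were tested, 8 had negative changes and none passed the test. In PS2APP replicates 1 to 5 the sum was 348.5, 905, 609, 222 and 27.1 CPM, in the order of the Csf3r values above. The part of neutrophils in the Csf3r difference was not tested.

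Per length, Csf3r and Csf1r changed places in part of the PS2APP myeloid libraries. The ratio of Csf3r to Csf1r RPKM was 0.587 to 0.784 in non-Tg libraries, and 0.874 to 1.64 in PS2APP libraries. Csf3r exceeded Csf1r in 0 of 5 non-Tg and 3 of 5 PS2APP libraries, and the ratios did not overlap. This ratio was chosen after the values were seen and has no test.

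**Figure D3:**
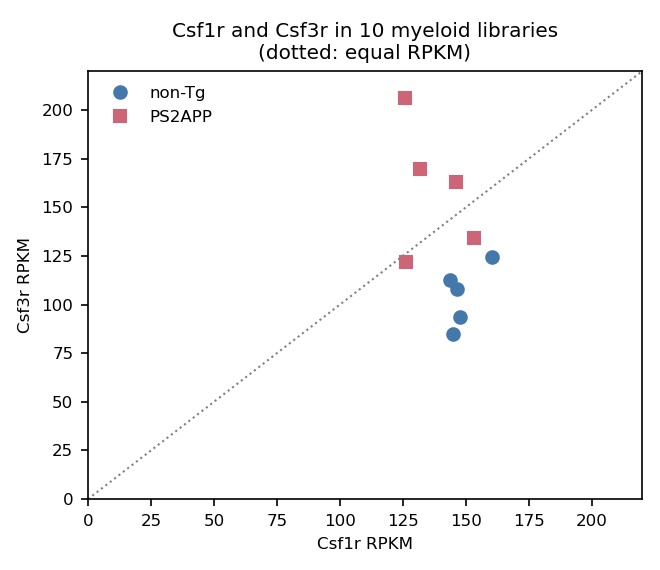
Csf3r RPKM against Csf1r RPKM in the 10 myeloid libraries, 1 point per library, with a dotted line at equal values. All 5 non-Tg libraries lie below the line and 3 of 5 PS2APP libraries lie above it.

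In astrocyte libraries Csf3r rose 6.8-fold. Non-Tg libraries held 7.03, 5.79, 6.10, 6.28 and 3.38 CPM, and PS2APP libraries 21.0, 29.6, 91.5, 25.4 and 25.2 CPM. The groups did not overlap, and replicate 3 stood far above the other PS2APP libraries. The log2 fold change was 2.77 ± 0.40 (adjusted p = 0.005), and it stayed called, at 2.15 to 2.90, when each library was left out. It was larger than the myeloid change (-2.27 ± 0.43, myeloid minus astrocyte, adjusted p = 0.0048). It was also larger than the neuron change by 2.37 ± 0.45 (adjusted p = 0.026), but that call held in 9 of 20 fits with 1 library left out, and without the 3 farthest libraries the difference was 1.68 (adjusted p = 0.14).

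Csf3r stood at 0.340% of its myeloid level in non-Tg and 1.66% in PS2APP astrocytes, and the microglia markers at 0.766% and 1.74% of theirs. Neutrophil markers summed to 0.483 to 3.35 CPM in non-Tg and 0.385 to 7.12 CPM in PS2APP astrocyte libraries, with 2 and 3 of 9 at 0, and none was tested. Per microglia marker count, Csf3r was 1.78 log2 units higher in PS2APP libraries (adjusted p = 0.0357, exact permutation), and 1.26 without the 2 most abundant markers (adjusted p = 0.0357, exact permutation). The part of these markers in the Csf3r rise was not tested further. In neurons Csf3r ranged from 5.62 to 12.6 CPM in non-Tg and from 7.06 to 21.8 CPM in PS2APP libraries, and did not pass the test (0.35 ± 0.30, adjusted p = 0.47). Of its 50-base stretches, 11.4% occur in other transcripts, most of them in the processed pseudogene AC105061.2.

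Csf2rb, the shared beta chain, was a myeloid gene with very few reads elsewhere. Non-Tg myeloid libraries held 191, 172, 129, 149.6 and 137 CPM and PS2APP ones 153, 124, 119.9, 116 and 127 CPM, and the change did not pass the test (-0.20 ± 0.16, adjusted p = 0.51). In astrocyte libraries the counts were 0, 2, 2, 2 and 0 in non-Tg and 10, 8, 10, 8 and 11 in PS2APP mice. The groups did not overlap, but the gene did not pass the count filter of the astrocyte fit. Summed over libraries there were 6 against 47 counts, a depth-scaled ratio of 11.97 with a 95% interval of 5.11 to 34.3 that covers counting error only. Fitted without the filter, the log2 fold change was 3.49 ± 1.01 (adjusted p = 0.042, edgeR). Without non-Tg astrocyte replicate 3 the gene passed the filter, at 3.88 ± 0.87 and an adjusted p of 0.11, and DESeq2 gave it no adjusted p. The gene entered the fit of all libraries only through its myeloid counts. There its effect in astrocytes differed from that in myeloid cells by -3.77 ± 0.58 (myeloid minus astrocyte, adjusted p = 0.00035, edgeR). That call rests on the same low astrocyte counts, and nothing is drawn from it.

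The paralog Csf2rb2 shares 17.1% of the 50-base stretches of Csf2rb, so reads may be split between them. Csf2rb2 ranged from 90.9 to 108 CPM in non-Tg myeloid libraries and from 62.7 to 109 CPM in PS2APP ones. In astrocyte libraries it had 5 counts in non-Tg and 13 in PS2APP mice, a ratio of 3.97 (1.33 to 14.2). Neuron libraries held 1 to 10 counts of Csf2rb in PS2APP and 2 to 6 in non-Tg mice.

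**Figure D4:**
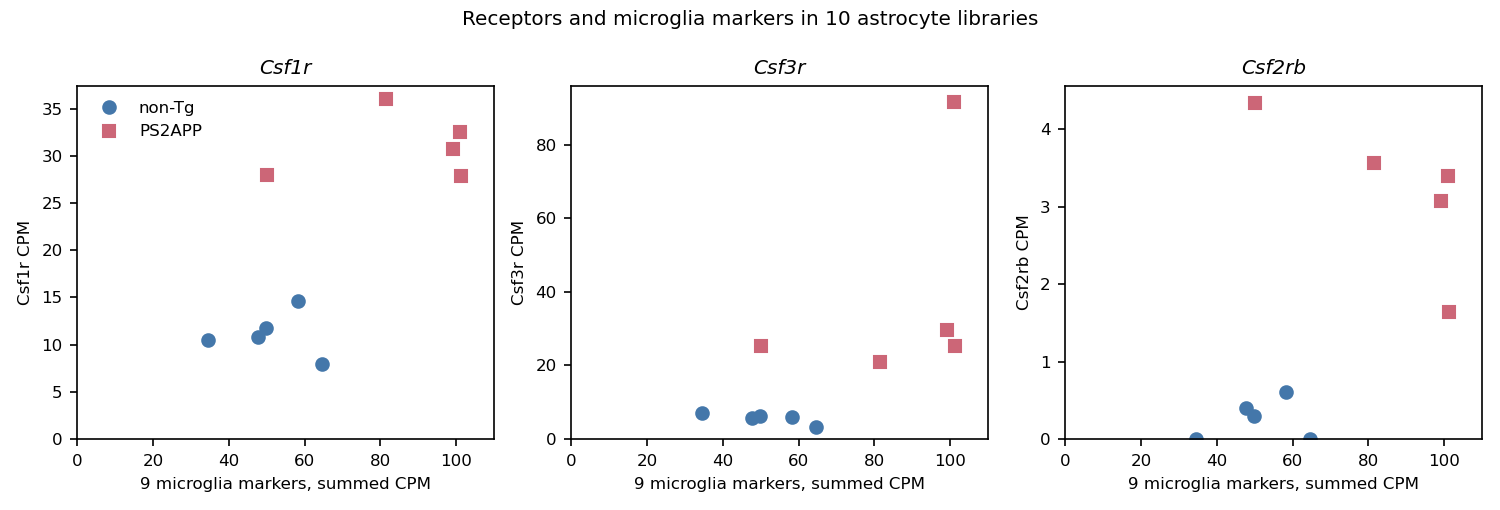
CPM of Csf1r, Csf3r and Csf2rb against the summed CPM of 9 microglia markers in 5 non-Tg (blue circles) and 5 PS2APP (red squares) astrocyte libraries. In 4 PS2APP libraries the markers (81.6 to 101 CPM) lie above the non-Tg range of 34.6 to 64.7 CPM, in 1 (50.1 CPM) within it, and all 5 lie above all non-Tg libraries on the receptor axis.

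Csf2ra, the ligand-binding chain, did not share the steep profile of its beta chain. It stood at 24.6% and 30.5% of its myeloid level in non-Tg astrocytes and neurons, where microglia markers stood at 0.766% and 0.746% of theirs. Non-Tg values ranged from 67.7 to 159 CPM in myeloid, 17.4 to 38.0 CPM in astrocyte and 23.9 to 40.7 CPM in neuron libraries. PS2APP values ranged from 93.2 to 127 CPM, 23.8 to 54.2 CPM and 30.4 to 46.9 CPM. The groups overlapped in each population, and no change passed the test: 0.15 ± 0.20 in myeloid cells (adjusted p = 0.72), 0.69 ± 0.27 in astrocytes (adjusted p = 0.21) and 0.16 ± 0.17 in neurons (adjusted p = 0.54). Per length, Csf2ra averaged below Csf1r in myeloid cells and above it in astrocyte and neuron libraries: non-Tg neuron libraries ranged from 3.39 to 5.70 RPKM for Csf2ra and from 0.581 to 1.11 RPKM for Csf1r.

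**Figure D5:**
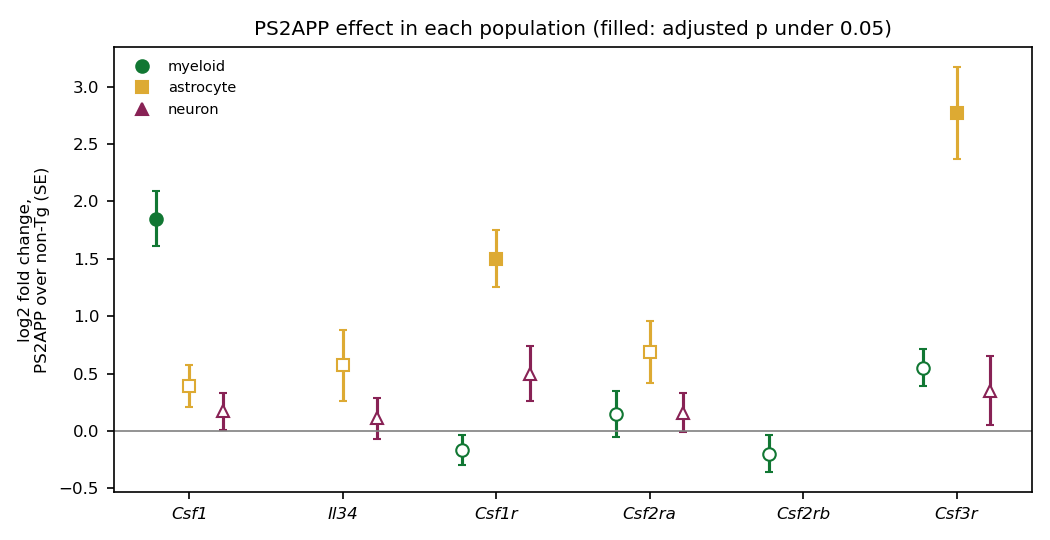
Log2 fold change of PS2APP over non-Tg with its standard error for each gene in myeloid (circles), astrocyte (squares) and neuron (triangles) libraries, filled where the adjusted p was under 0.05. The filled points are Csf1 in myeloid cells (1.85) and Csf1r (1.5) and Csf3r (2.77) in astrocytes; Il34 in myeloid cells and Csf2rb in astrocytes and neurons were not tested in these fits and are left out.

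Ranked by mean over the 6 groups, Csf1 was highest in PS2APP astrocytes, and its PS2APP myeloid group ranked between the 2 astrocyte groups and overlapped both. For Il34 the 4 astrocyte and neuron groups overlapped their neighbours in rank, and the step to the myeloid groups did not. For Csf1r, PS2APP astrocytes (27.9 to 36.0 CPM) stood between the myeloid groups and the neuron groups without overlap, and non-Tg astrocytes were lowest. For Csf2ra, Csf2rb and Csf3r the myeloid groups stood apart and the ranges of neighbouring groups below them overlapped.

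Profiles were compared across the 30 libraries by Pearson correlation of log2 CPM, as a description, since libraries of a population share most of their differences. Among 9063 genes the closest to Csf1 were Ttyh2 (r = 0.956), Axl (0.954) and Apoe (0.95), and the closest to Il34 were Rtkn (0.953), Zfp454 (0.953) and Efr3b (0.948). The closest to Csf1r were Apbb1ip (0.994), Dock2 (0.994) and Siglech (0.993). For Csf2rb they were Csf1r (0.992), Fcrls (0.991) and Abi3 (0.99), and for Csf3r Rasal3 (0.996), Fyb (0.995) and Myo1f (0.995). Csf2ra reached 0.941 with Csf3r and Rnf111 and 0.94 with Sh3bgrl3. Between the 2 ligands r was -0.095.

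The ligands of the other receptors were scarcely measured in these cells. Csf2, the ligand of Csf2ra, had 1 count in all 30 libraries, and Il3 had 7. Csf3, the ligand of Csf3r, averaged 1.08 to 5.92 CPM over the 6 groups, highest in non-Tg neurons, on at most 55 counts a library. Ptprz1, a phosphatase that also binds Il34, was an astrocyte gene at 1897.3 CPM in non-Tg astrocytes, and its fall in PS2APP myeloid libraries, from 62.1 to 33.4 CPM, did not pass the test (-0.81 ± 0.24, adjusted p = 0.059). Sdc1, another Il34 partner, had 5 counts in all libraries. Of these 9 family genes beyond the members, 4 were tested in myeloid, 2 in astrocyte and 4 in neuron libraries. None passed the test, and their median log2 fold changes were -0.17, 0.12 and -0.11 against 0.00, 0.01 and -0.02 for all genes. The lowest adjusted p in astrocytes was 0.73, for Ptprz1 (-0.11 ± 0.14), and in neurons 0.19, for Csf3 (-0.89 ± 0.29).

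Of 22 genes of receptor-proximal signalling, all tested in myeloid libraries, 1 rose and none fell, where 3.36% of all genes were called. It was Tyrobp, the adaptor through which Trem2 signals in microglia, from 198 ± 19.4 to 291 ± 41.9 CPM (SD, n = 5). Its log2 fold change was 0.64 ± 0.15 (adjusted p = 0.022, edgeR). The median of the list was 0.03. In astrocytes, where 0.185% of all genes were called, 19 were tested and 1 rose, Inpp5d, a phosphatase that limits receptor signalling (2.28 ± 0.45, adjusted p = 0.043), with a list median of 0.28. It is itself abundant in myeloid cells, at 1365.3 CPM in non-Tg libraries against 3.73 CPM in astrocyte ones. In neurons none of 21 passed, and the smallest adjusted p was 0.19, for Plcg2 (0.67 ± 0.24) and Src (0.63 ± 0.22).

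Of 8 STAT factors and feedback inhibitors, 6 were tested in myeloid, 5 in astrocyte and 5 in neuron libraries, and none passed. The lowest adjusted p was 0.11 in astrocytes and 0.19 in neurons, both for Stat3 (0.71 ± 0.19 and 0.66 ± 0.21). Of 8 transcription factors of myeloid receptor genes, 8, 2 and 3 were tested and none passed. Spi1, given because of the motif above, had means of 97.0 CPM (non-Tg) and 129 CPM (PS2APP) in myeloid cells (0.50 ± 0.20, adjusted p = 0.17).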

How the data were processed

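Per the file headers, each deposited table gives for each gene identifier the count of reads aligned uniquely to the gene model and a size-factor-adjusted RPKM. Reads were aligned with GSNAP to GRCm38, per the submitters' processing notes, with no version given. The deposited counts were used for all tests and CPM, and the authors' RPKM only to compare levels between genes. Symbols came from a RefSeq GRCm38.p6 table, which named 31049 of 36528 identifiers, holding 96.7% of counts. Csf1r, Il34 and Csf2rb had no promoter sequence used here.

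Each population was fitted separately with edgeR 4.0.16 (R 4.3.3; filterByExpr, TMM, quasi-likelihood test, genotype as the only term, Benjamini-Hochberg adjustment). Population contrasts and differences of the genotype effect came from 1 fit of all 30 libraries. CPM used TMM-scaled totals of that fit. Single values (ligand share; log2 ratio of a receptor's count to 9 summed microglia markers, adding 0.5) were compared by two-sided exact permutation tests with scipy 1.17.1, adjusted over 9, where 5 against 5 can reach 0.00794. The fitting scripts were tested on simulated data. Replicates of a group all differed by more than counting noise: the smallest chi-square divided by its degrees of freedom was 4.06.

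The members and gene lists were chosen with earlier results of these data known, and so were the 3 libraries left out together. Every member is named; from each of the 4 pathway lists, genes that were called (at most 4), or otherwise that with the smallest p, and the 3 genes with profiles closest to each member; some pathway results are not reported here, and marker lists are given by counts and called genes. Spi1 was named outside this rule. Alternatives were RLE and upper-quartile scaling, no count filter, a robust fit, DESeq2 1.42.0, the joint fit and leaving out libraries. Intervals and floors cover counting error only.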

Additional observations from a re-analysis of the deposited data

Results flagged for a closer look

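Of 36 sets of 5 libraries (6 genes in 6 groups), 5 held a library whose gap to its nearest neighbour exceeded Dixon's 95% limit of 0.71 of the group's range, where chance gives about 1 in 20. PS2APP astrocyte replicate 3 was the high library for both Il34 (49.5 CPM) and Csf3r (91.5 CPM). Without it the Csf3r change in astrocytes was 2.15 and still called. The others were Il34 in non-Tg myeloid replicate 5 (3.92 CPM), Csf2ra in PS2APP neuron replicate 2 (46.9 CPM) and Csf2rb in PS2APP myeloid replicate 1 (153 CPM).

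Of 18 differences of the PS2APP effect between populations, 6 passed the test in the fit of all libraries. Over all genes 0.757%, 0.105% and 0.0331% passed in the 3 contrasts (myeloid minus astrocyte, myeloid minus neuron, astrocyte minus neuron). The effect on Csf1 was larger in myeloid cells than in astrocytes by 1.40 and than in neurons by 1.58 log2 units. Myeloid minus astrocyte, the difference was -1.73 for Csf1r, -3.77 for Csf2rb and -2.27 for Csf3r. Csf2rb did not pass the filter of the astrocyte fit and entered the fit of all libraries only through its myeloid counts. Its call is among the 6, and nothing is drawn from it. Astrocyte minus neuron, it was 2.37 for Csf3r, a call that held in 9 of 20 fits with 1 library left out.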

How the results depend on the processing

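Over 51 results on members, 1065 of 1104 alternatives kept direction and side of the threshold, 14 lost the call, 9 gained it and 16 changed sign. Counts of genes called moved most. Without a filter, with DESeq2 and in the joint fit they were 939, 911 and 798 in myeloid libraries, 514, 332 and 295 in astrocyte and 15, 164 and 5 in neuron libraries, and leaving out 1 library gave 105 to 652, 8 to 125 and 1 to 11. The myeloid minus astrocyte contrast called 213 without a filter, myeloid minus neuron 12 to 27 with 1 library left out, and astrocyte minus neuron 1 to 11, or 3 without the 3 farthest libraries.

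Sign changes were among differences that had not passed. Myeloid minus astrocyte, Il34 gave -0.52 ± 0.61 (SE) in the main fit and 0.148 without the 3 libraries. Myeloid minus neuron, Il34 gave 0.025 with RLE scaling, 0.254 without the 3 libraries and -0.613 to 0.318 with 1 left out; Csf2ra gave 0.027 with RLE and -0.238 to 0.094; Csf3r gave -0.017 without the 3 and -0.057 to 0.439. Non-Tg Csf1r, astrocyte against neuron, gave -0.208 to 0.015. With 1 library left out, the change of the Csf1 share ranged from -3.74 to 3.74 percentage points in astrocytes and -0.617 to 1.4 in neurons. Non-Tg Csf3r, astrocyte against neuron, passed without the 3 libraries (-0.763, adjusted p = 0.011). Per marker count and without the 2 most abundant markers, Csf1r gave 0.225 in astrocytes and 0.179 in neurons, and Csf3r -0.00391 in neurons. With 1 library left out, Csf1r per marker gave 0.54 to 0.862 in astrocytes and 0.131 to 0.242 in myeloid cells, and Csf3r per marker 0.74 to 0.995 in myeloid cells. The calls of Csf1r per marker in astrocytes and Csf3r per marker in myeloid cells held in 2 of 10 such tests each, and Csf1r per marker in myeloid cells gained a call in 1. The cause was not tested.

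Leaving out the 3 libraries together is, within a population, the same as leaving out 1 of them. No paired analysis was possible because the labels carry no replicate numbers. Il34 in myeloid and Csf2rb in astrocyte and neuron libraries lay too near the counting floor for a filtered fit.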
